A study of Mus musculus with 11 samples.

Results

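A set of 6 surface receptors of hematopoietic progenitors and myeloid cells were examined at their genes: *Flt3*, *Kit*, *Cd34*, *Csf1r*, *Csf3r* and *Csf2rb*. The genes were chosen by name, and their chromatin was described from every ATAC-seq peak that overlapped the gene body extended by 20 kb on each side, hereafter the window. These are 6 of 21938 protein-coding genes of the annotation, and their windows held 36 of the 71400 intervals obtained when overlapping peaks of all 9 libraries were merged. ATAC-seq, which reads out accessible DNA through the insertions of a transposase, was performed on sorted cells of C57BL/6 mice aged 4 to 8 weeks, and the study calls its libraries of each type biological replicates. CD4 single positive (CD4SP) thymocytes and natural killer T (NKT) thymocytes gave 2 libraries each, bone marrow common lymphoid progenitors (CLP) gave 3, and bone marrow innate lymphoid cell precursors (ILCP) gave 2. NKT cells, ILCP and their comparison cells were chosen to follow the transcription factor PLZF, encoded by *Zbtb16*, which NKT and ILCP express and CD4SP and CLP do not. The CLP gate took lineage-negative, IL-7Rα+ cells with high Flt3 and intermediate Sca-1 and cKit, so the proteins of *Kit* and *Flt3* were part of it. The ILCP gate took lineage-negative cells positive for IL-7Rα, α4β7 and eGFP, with neither receptor in the gate, and the eGFP is carried by the *Zbtb16*-IRESGFPcre allele in a strain the methods list, although the labels give C57BL/6 for all libraries. How many animals were pooled for a library was not stated, so p-values measure the spread between these libraries.

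All 6 proteins sit on the surface of blood-forming cells. Flt3, c-Kit and the macrophage colony-stimulating factor receptor encoded by *Csf1r* are related receptor tyrosine kinases: binding of the ligand (Flt3 ligand, stem cell factor, or CSF-1 and IL-34) pairs the receptors and switches on their kinase domains. *Csf3r* encodes the granulocyte colony-stimulating factor receptor and *Csf2rb* the common β chain shared by the receptors for GM-CSF, IL-3 and IL-5; both lack a kinase of their own and signal through Janus kinases and STAT proteins. Cd34 is a sialomucin used to mark early progenitors. Flt3 and c-Kit are lost as lymphoid progenitors commit to the T lineage, and the CSF receptors are best known in monocytes, macrophages and granulocytes.

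The libraries differed in how much was called. The lists held 33648 and 37909 peaks for CD4SP, 34701 and 38793 for NKT, 19343, 41535 and 40136 for CLP replicates 1, 2 and 3, and 26328 and 25771 for ILCP. The lowest score of a peak was 120 in every library, the number of reads of each library is not in the peak lists, the methods giving only a range for all libraries, and where a peak is absent it was merely not called. For these reasons the score was used only as a rank within its library, given as the upper percentage of that library's peaks, so that a small percentage is a high rank. Start sites of all genes were covered by a peak in 33.2% (CLP replicate 1) to 50.8% (CLP replicate 2) of cases. As a check of the labels, 6 or 7 of 7 T cell marker genes had an open start site in each thymic library and 0 to 2 in each bone marrow library, and the window of *Zbtb16* held 13 and 12 peaks in NKT against 3 and 3 in CD4SP. It held 7 and 9 in ILCP and 0, 7 and 2 in CLP replicates 1, 2 and 3, so CLP replicate 2 did not lie below ILCP. Of 8 CLP markers, *Flt3* and *Kit* among them, 5, 7 and 7 start sites were open in CLP and 4 and 3 in ILCP. Among markers of other cells, granulocyte and monocyte genes had 0 or 1 of 8 start sites open in every library, erythroid genes 0 or 1 of 5, mast cell and basophil genes 0 of 4 and B cell genes 1 or 2 of 5. Within these lists the windows of *Ly6g* (neutrophils) and *Mcpt8* (basophils) held no peak in any library, whereas *Cd14* (monocytes) held 2 or 3 in every library, *Cpa3* (mast cells) 1 to 4, *Klf1* (erythroid cells) 3 or 4 and *Cd79a* (B cells) 3 to 5. *Ebf1*, a factor of early B lineage cells, held 4, 10 and 12 peaks in CLP, 7 and 7 in ILCP and 3 to 5 in the thymus. *Lyz2* (monocytes and granulocytes) had 1 peak in each ILCP library and none elsewhere, and the part of such cells in the results was not tested. ATAC-seq of bulk cells cannot tell chromatin that is open in a few cells from chromatin that is weakly open in all.

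The start sites of *Flt3* and *Cd34* were open in all 5 bone marrow libraries and in none of the 4 thymic libraries. *Kit* was open at its start in the same 5 and in NKT replicate 2. The start sites of *Csf1r* and *Csf3r* were each open in 1 library, CLP replicate 3 and CLP replicate 2 in that order, and that of *Csf2rb* in none. Across the genome, 0.738% of start sites were open in every bone marrow library and no thymic library, 1.02% showed the opposite pattern, 27.3% were open in all 9 libraries and 43.4% in none. Beyond the starts, all 6 windows had their own pattern, and the number of peaks in a window followed the tissue only for *Cd34* and *Csf1r* (plot of bases covered by library).

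**Figure D1:**
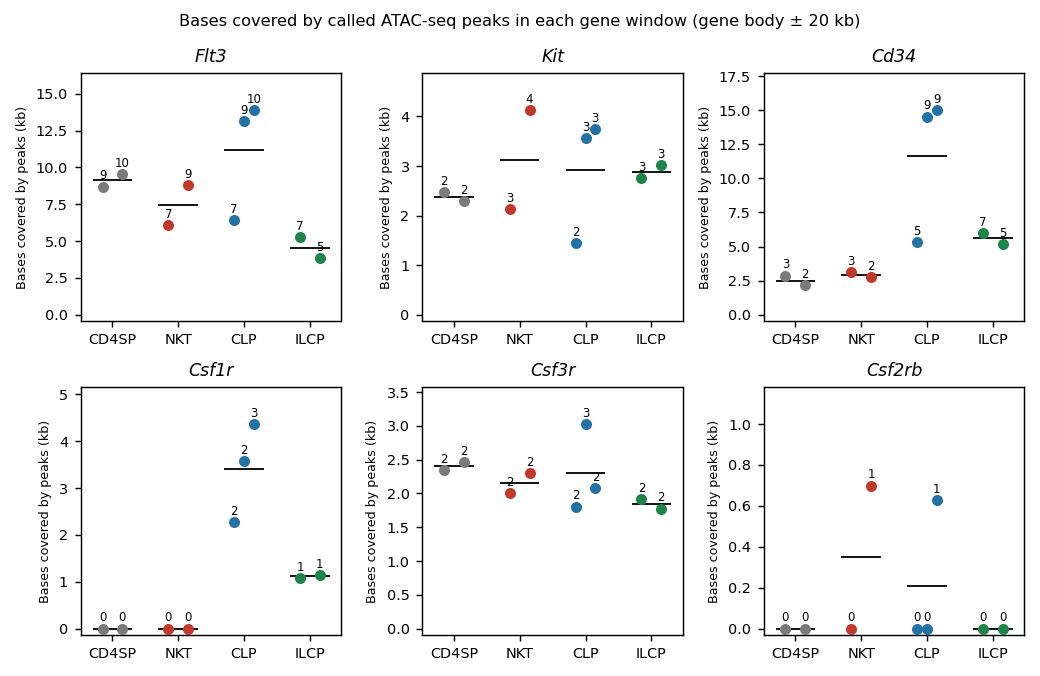
Bases covered by called peaks in the window of each gene (kb), with 1 point per library grouped by cell type, the number of peaks written above the point, and a line at the group mean. Each panel has its own scale from 0. *Cd34* and *Csf1r* are covered more in every bone marrow library than in any thymic library, and CLP replicate 1 lies below the other CLP libraries for *Flt3*, *Kit*, *Cd34*, *Csf1r* and *Csf3r*.

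*Flt3*, the receptor that marks the earliest lymphoid progenitors, lies on chromosome 5 at 147330741 to 147400489 on the minus strand (mm10, ENSMUSG00000042817.15, 24 exons), and its window also holds *Urad*. The window contained 12 intervals, the most of the 6 genes. The start of the gene lay in an interval at chr5:147398013-147401599, 3587 bp wide, that reached into intron 1. Peaks there covered 1038, 3587 and 3517 bp in CLP replicates 1, 2 and 3, and 1057 and 1093 bp in ILCP. They ranked in the upper 10.8%, 0.188% and 3.94% of peaks in CLP and in the upper 19.8% and 25.2% in ILCP. Every CLP library therefore placed the *Flt3* start higher than either ILCP library did. Of all intervals open in the 5 bone marrow libraries, 25.4% had this order and 12.1% the reverse order.

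The promoter of *Flt3* is printed with those of *Kit* and *Cd34* because these are the 3 start sites open in all 5 bone marrow libraries. The sequences are 300 bases long, around the RefSeq start and mostly before it (GRCm38.p6, the assembly of mm10), and run 5′ to 3′ on the strand of the gene. Capitals mark matches on either strand to the 7 motifs searched, which were TGTGGT for Runx factors, GAGGAA for PU.1 and other members of the Ets family, AGATAA for the GATA factors, TTGCNNAA for members of the C/EBP family, CAGCTG for proteins that bind the E-box, CTTTGA for the Tcf factors and TGACTCA for the subunits of AP-1.
Flt3 promoter, chr5:147400440-147400739, minus strand: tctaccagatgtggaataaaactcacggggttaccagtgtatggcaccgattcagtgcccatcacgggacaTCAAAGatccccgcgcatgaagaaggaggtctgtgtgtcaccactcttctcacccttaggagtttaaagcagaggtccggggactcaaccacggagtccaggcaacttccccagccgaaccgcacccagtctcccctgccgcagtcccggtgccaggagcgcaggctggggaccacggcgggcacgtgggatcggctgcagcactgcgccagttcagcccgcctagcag
Kit promoter, chr5:75574737-75575036, plus strand: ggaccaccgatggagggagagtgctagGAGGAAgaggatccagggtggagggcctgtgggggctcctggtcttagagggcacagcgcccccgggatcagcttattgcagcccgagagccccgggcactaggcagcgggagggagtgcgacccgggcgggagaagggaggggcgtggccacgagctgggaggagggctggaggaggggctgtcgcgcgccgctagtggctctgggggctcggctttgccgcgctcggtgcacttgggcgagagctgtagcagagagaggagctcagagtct
Cd34 promoter, chr1:194938571-194938870, plus strand: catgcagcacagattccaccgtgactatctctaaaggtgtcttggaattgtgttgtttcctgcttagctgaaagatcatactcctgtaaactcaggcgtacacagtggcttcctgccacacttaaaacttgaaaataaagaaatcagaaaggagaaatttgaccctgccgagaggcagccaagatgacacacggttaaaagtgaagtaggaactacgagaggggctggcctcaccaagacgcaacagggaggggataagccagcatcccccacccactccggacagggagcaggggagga
The *Flt3* promoter held 1 CTTTGA, read on the other strand as TCAAAG, and no other match. The *Kit* promoter held 1 GAGGAA, and that of *Cd34* held no match to any of the 7. CTTTGA occurred in 16.0% and GAGGAA in 28.3% of 32817 promoters of the same length, so the matches are common ones. GC content was 61.0% at *Flt3*, 69.0% at *Kit* and 50% at *Cd34*.

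Inside *Flt3* the tissues differed in which intervals centered in introns were open (map of the *Flt3* and *Kit* windows). Here and below, the intron named is the one that holds the midpoint of the interval, which may also cover exons. An interval in intron 1, 7.56 kb past the start (chr5:147392231-147393634), was open in the 3 CLP libraries, in the upper 37.9%, 22.7% and 25.2%, and in ILCP replicate 2 in the upper 81.3%. No thymic library had a peak there. The reverse held for an interval centered in intron 12, 45.3 kb past the start (chr5:147354630-147355764). That interval, which also covers the exons beginning 45377 and 45558 bp past the start, was open in all 4 thymic libraries and in none from bone marrow. Its peaks ranked in the upper 47.8% and 54.5% in CD4SP and the upper 44.1% and 43.1% in NKT, the middle of each list. An interval in intron 9, 41.8 kb past the start, was likewise open in the 4 thymic libraries, in the upper 57.3% to 64.6%, and otherwise in ILCP replicate 1 alone, in the upper 92.7%. Thus *Flt3* had called peaks inside its body in thymocytes in which its start had none.

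**Figure D2:**
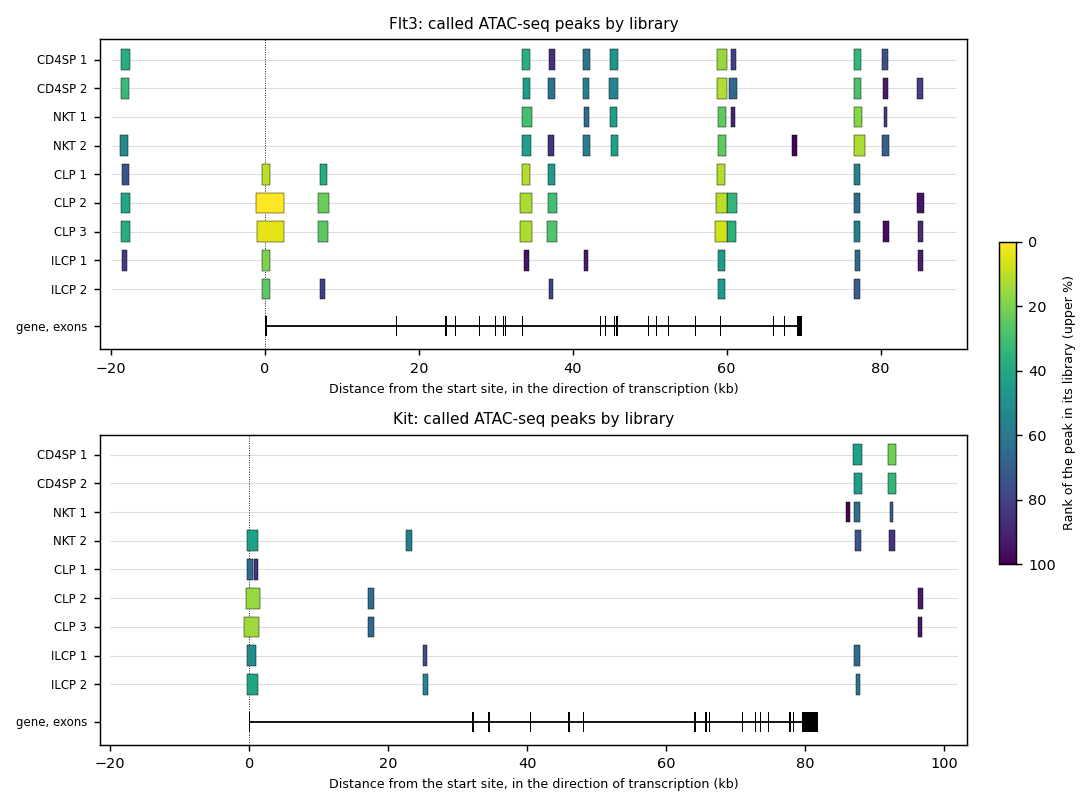
Called peaks in the windows of *Flt3* (upper panel) and *Kit* (lower panel), 1 row per library, with the position as distance from the start site in kb in the direction of transcription and the color giving the rank of the peak in its library (upper %, yellow high). The black bar is the gene and its exons. Peaks at the *Flt3* start appear in the 5 bone marrow rows only, and peaks past the 3′ end of *Kit* near 92.4 kb in the 4 thymic rows only.

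The 2 further intervals of intron 9 were open in both tissues but ranked differently among the progenitors. The one 33.9 kb past the start was in the upper 12.1%, 12.5% and 12.2% of CLP peaks. It was in the upper 29.8% to 44.8% in the thymic libraries, in the upper 95.3% in ILCP replicate 1, and absent from the list of ILCP replicate 2. The one 37.3 kb past the start was in the upper 45.7%, 30.4% and 27.4% in CLP, was open in ILCP replicate 2 only in the upper 80.1%, and was open in 3 of the 4 thymic libraries in the upper 62.6% to 86.1%. Both were therefore called in every CLP library and in 1 ILCP library each. An interval in intron 20, 59.9 kb past the start, was open in all 9 libraries, in the upper 7.34% to 11.6% in CLP, 12.0% to 24.6% in the thymus and 45.0% and 45.6% in ILCP.

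In the *Flt3* window, 3 intervals lay near or in *Urad* rather than in *Flt3*. The one 77.2 kb past the *Flt3* start, 90 bp from *Urad*, was open in all 9 libraries. It was in the upper 12.3% to 34.2% in the thymus and in the upper 56.2% to 70.8% in bone marrow. How many intervals of the genome have this order between the tissues was not counted. The intervals at 80.6 and 85.2 kb overlapped *Urad* and were open in 5 and 4 libraries, all in the lower part of each list. The remaining intervals were one 18.2 kb upstream, open in 7 libraries in the upper 32.4% to 82.4%, and one 68.8 kb past the start, open in NKT replicate 2 alone in the upper 99.2%.

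The number of peaks in the whole *Flt3* window overlapped in all 3 comparisons. CD4SP libraries held 9 and 10 peaks, NKT 7 and 9, CLP 7, 9 and 10, and ILCP 7 and 5. ILCP had 6 ± 1.41 peaks (SD, n = 2) and CLP 8.67 ± 1.53 (SD, n = 3), and ILCP minus CLP was -2.67 (two-sided exact permutation test, p = 0.3, adjusted p = 0.8 over 17106 genes). That difference grew to -4 with an equal number of highest-scoring peaks per library (19343) and to -4.33 with the higher-scoring 50% of peaks, each at the smallest p this design allows, 0.1, with adjusted p of 0.515 and 0.825. Bone marrow minus thymus was -1.15 (exact p = 0.381, adjusted p = 0.627), and changed sign to 1.15 with the equal number of peaks. NKT minus CD4SP was -1.5 (exact p = 0.667, adjusted p = 1). Single libraries moved all 3 *Flt3* differences without changing their sign. ILCP minus CLP ran from -3.67 without ILCP replicate 1 to -1.67 without ILCP replicate 2, and NKT minus CD4SP from -2.5 without NKT replicate 2 to -0.5 without NKT replicate 1. Bone marrow minus thymus ran from -1.75 without CLP replicate 3 to -0.5 without ILCP replicate 2.

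*Kit*, the receptor of stem cell factor, lies on the plus strand of chromosome 5 at 75574916 to 75656722 (ENSMUSG00000005672.12, 21 exons) with no other protein-coding gene in its window. The nearest, *Kdr*, was over 260 kb from each of its 8 intervals. At the start, chr5:75574156-75576452, the peak ranked in the upper 65.8%, 16.0% and 14.8% in CLP replicates 1, 2 and 3, in the upper 51.7% and 41.1% in ILCP and in the upper 43.0% in NKT replicate 2. CLP and ILCP ranks overlapped through CLP replicate 1, the library with the fewest peaks. The other CLP libraries both ranked above ILCP, an order found in 68.0% of all intervals open in the 5 bone marrow libraries. No peak was called at the *Kit* start in NKT replicate 1 or in either CD4SP library.

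Away from the start, 2 *Kit* intervals were open in ILCP and not in CLP. An interval in intron 1, 25.3 kb past the start (chr5:75599890-75600634), was open in both ILCP libraries, in the upper 75.8% and 54.2%, and in no other library. It was the 1 of the 36 intervals (2.78%) open in every ILCP library and in no other type, with 3.66% for all intervals. A second interval, 87.5 kb past the start and 5043 bp beyond the 3′ end (chr5:75661765-75663053), was open in ILCP in the upper 65.5% and 60.2%, in CD4SP in the upper 43.5% and 44.8% and in NKT in the upper 63.5% and 74.0%, and in no CLP library. These were the 2 intervals of the 6 windows open in every ILCP and no CLP library, of 31 open in either type (6.45%, with 8.67% for all intervals of the genome). Both shares were below those of the genome, and with the higher-scoring 50% of peaks no interval was open in every ILCP and no CLP library. CLP replicates 2 and 3 had peaks of their own 17.5 kb past the start, in the upper 65.0% and 66.8%, and 96.5 kb past it, in the upper 93.4% and 93.5%.

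A further interval, 92.4 kb past the *Kit* start and 10056 bp beyond its end (chr5:75666778-75667961), was open in the 4 thymic libraries and none from bone marrow. It ranked in the upper 21.5% and 33.7% in CD4SP and in the upper 69.8% and 85.7% in NKT, so each CD4SP library placed it above each NKT library, as in 20.6% of intervals open in all 4 thymic libraries. With the intron 12 interval of *Flt3*, it was 1 of 2 of the 36 intervals (5.56%) open in the whole thymus only, with 7.04% for all intervals. That count was 0 with an equal number of highest-scoring peaks, 1 with the higher-scoring 50%, a cover of at least 50%, or an extension of 5 kb or none, and 5 when any library sufficed. The 2 last intervals of the window were each open in 1 library. They lay 86.1 kb past the start in NKT replicate 1, in the upper 98.8%, and 23.0 kb past it in NKT replicate 2, in the upper 57.1%.

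The central 200 bases of 3 intervals are shown because these were the ones of *Flt3* and *Kit*, away from the start sites, that were open in every library of the thymus or of ILCP and in no other library. They are given 5′ to 3′ on the strand of the gene, with the same motifs in capitals.
Flt3 intron 12, chr5:147355098-147355297, minus strand, thymus only: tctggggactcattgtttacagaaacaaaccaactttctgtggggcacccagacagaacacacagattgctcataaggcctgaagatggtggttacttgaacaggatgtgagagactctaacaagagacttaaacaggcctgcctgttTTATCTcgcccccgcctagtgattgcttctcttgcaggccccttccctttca
Kit intron 1, chr5:75600163-75600362, plus strand, ILCP only: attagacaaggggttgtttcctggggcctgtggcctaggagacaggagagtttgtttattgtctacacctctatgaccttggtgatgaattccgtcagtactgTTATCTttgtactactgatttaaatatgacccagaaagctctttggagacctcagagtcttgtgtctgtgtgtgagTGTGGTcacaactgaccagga
Kit downstream, chr5:75667270-75667469, plus strand, thymus only: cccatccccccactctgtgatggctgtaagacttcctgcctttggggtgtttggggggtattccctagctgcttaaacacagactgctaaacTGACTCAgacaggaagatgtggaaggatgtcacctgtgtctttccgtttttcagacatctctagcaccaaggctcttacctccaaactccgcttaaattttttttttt
The *Flt3* sequence held 1 AGATAA, written TTATCT on this strand. Its last bases lie past intron 12, in the exon that begins 45377 bp past the start. The ILCP-only sequence of *Kit* held 1 AGATAA in the same orientation and 1 TGTGGT. The thymus-only sequence of *Kit* held 1 TGACTCA. In the central 200 bases of 71398 intervals of the genome, AGATAA occurred in 9.72%, TGTGGT in 25.1% and TGACTCA in 4.78%.

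The number of peaks in the *Kit* window was small. CD4SP held 2 and 2 peaks, NKT 3 and 4, CLP 2, 3 and 3, and ILCP 3 and 3. NKT therefore lay above CD4SP without overlap (3.5 ± 0.707 against 2 ± 0, SD, n = 2 each), as did 9.48% of 16515 genes, with 6.61% in the other direction. The difference of 1.5 had an exact permutation p of 0.333, two-sided, the smallest that 2 against 2 libraries allow, and an adjusted p of 1. It became -1.5 when an equal number of highest-scoring peaks per library was kept. ILCP minus CLP was 0.333 (exact p = 1) and bone marrow minus thymus 0.05 (exact p = 1). The latter depended on the window, since it was 1.25 with an extension of 5 kb (exact p = 0.0476, adjusted p = 0.185) and 1.5 over the gene body alone (exact p = 0.0476, adjusted p = 0.214), where the thymic peaks past the 3′ end were left out. It changed sign to -0.65 with the higher-scoring 50% of peaks (exact p = 0.397) and to -0.2 without either CD4SP library (exact p = 1).

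*Cd34* (ENSMUSG00000016494.9, chromosome 1, 194938819 to 194961279, plus strand, 8 exons), the sialomucin of early progenitors, showed the largest difference in peak number between bone marrow and thymus among the 6 genes. CLP libraries held 5, 9 and 9 peaks and ILCP libraries 7 and 5, while CD4SP held 3 and 2 and NKT 3 and 2. Bone marrow thus had 7 ± 2 peaks (SD, n = 5) and thymus 2.5 ± 0.577 (SD, n = 4), with no overlap, a pattern shared by 3.54% of 17731 genes and reversed in 12.8%. The difference of 4.5 gave p = 0.0238 (exact permutation test, two-sided) and an adjusted p of 0.124. Per 10000 peaks of the library, the difference was 1.62 with an adjusted p of 0.0495, a threshold that 5.01% of genes then passed toward bone marrow and 11% toward the thymus. Over all genes the median difference was -0.45 peaks, toward the thymus. Tissue and cell type cannot be told apart, since each type came from 1 tissue.

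The *Cd34* start lay in the widest interval of the 6 windows, 6397 bp at chr1:194938109-194944505, which held 2 peaks in each bone marrow library and none in the thymus. Those peaks covered 2209, 6193 and 6249 bp in CLP and 1877 and 1967 bp in ILCP. The better of the 2 ranked in the upper 21.7%, 5.21% and 4.99% in CLP and in the upper 28.6% and 30.9% in ILCP, again with every CLP library above every ILCP library. Around it lay 5 intervals open only in bone marrow libraries and not in all of them. The 2 best of these, 10.7 kb upstream and 7.80 kb past the start in intron 1, were open in the 3 CLP libraries and ILCP replicate 1. In CLP replicates 2 and 3 they ranked in the upper 16.4% to 32.0%, but in CLP replicate 1 and ILCP replicate 1 in the upper 67.2% to 88.4% (map of the *Cd34*, *Csf1r*, *Csf3r* and *Csf2rb* windows).

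The 3 others were called in fewer libraries and at lower ranks. One 3.15 kb upstream was open in CLP replicates 2 and 3, in the upper 66.5% and 70.0%, and one 9.04 kb upstream in CLP replicate 2, in the upper 87.1%. One in intron 4, 12.3 kb past the start, was open in CLP replicate 3 and ILCP replicate 2, in the upper 92.8% and 98.7%. Each appeared in at most 2 libraries and in neither CD4SP nor NKT.

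**Figure D3:**
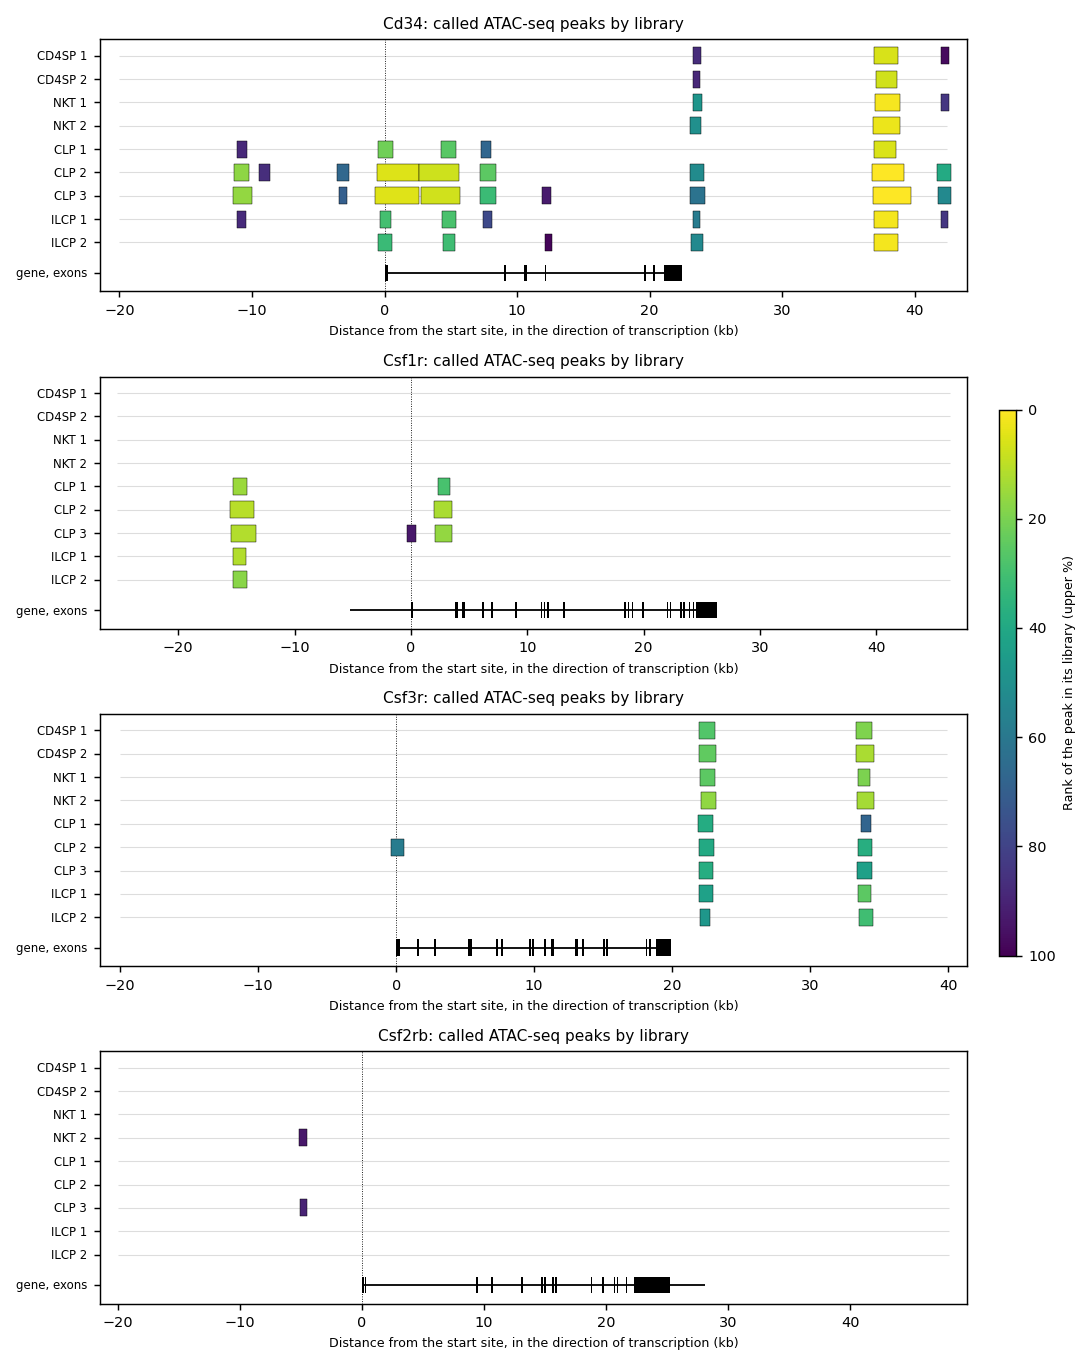
Called peaks in the windows of *Cd34*, *Csf1r*, *Csf3r* and *Csf2rb* (top to bottom), 1 row per library, with the position as distance from the start site in kb in the direction of transcription and the color giving the rank of the peak in its library (upper %, yellow high). The black bar is the gene and its exons. The peak near 38.3 kb of *Cd34* is high in all 9 rows, *Csf1r* has peaks in the 5 bone marrow rows only, and the 2 peaks shared by all rows of *Csf3r* lie past its 3′ end.

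In every library the best-ranked interval of the window was not at the start of *Cd34* but 38.3 kb past it, at chr1:194975627-194978542, 14348 bp beyond the 3′ end. It was open in all 9 libraries. It ranked in the upper 6.11% and 7.35% in CD4SP and in the upper 1.49% and 2.78% in NKT. In CLP it ranked in the upper 5.74%, 0.279% and 0.259%, and in ILCP in the upper 1.88% and 1.66%. Both NKT libraries placed it above both CD4SP libraries, as in 19.7% of intervals open in all 4 thymic libraries, and CLP and ILCP overlapped. The nearest other protein-coding gene, *Cd46*, was 58284 bp away. Its central 200 bases are shown because this was the one strong interval of the gene that thymocytes shared.
Cd34 downstream, chr1:194976985-194977184, plus strand, open in all libraries: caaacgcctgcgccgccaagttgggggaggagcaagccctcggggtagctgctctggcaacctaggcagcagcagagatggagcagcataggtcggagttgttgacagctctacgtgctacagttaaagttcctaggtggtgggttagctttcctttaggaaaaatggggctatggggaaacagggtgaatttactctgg
None of the 7 motifs matched in it, and its GC content was 54.5%. Of the 36 intervals, 5 (13.9%) were open in all 9 libraries, with 13.3% for all intervals. The neighbor at 23.6 kb was open in every library but CLP replicate 1, in the upper 48.0% to 89.0%, and the one at 42.2 kb in 5 libraries, in the upper 39.4% to 97.2%. ILCP minus CLP was -1.67 peaks (exact p = 0.6, adjusted p = 1) and NKT minus CD4SP was 0 for the *Cd34* window. With each library left out the former ran from -3 without CLP replicate 1 and -2.67 without ILCP replicate 1 to -0.667 without ILCP replicate 2, with -1 without CLP replicate 2 or 3.

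*Csf1r*, the CSF-1 and IL-34 receptor of macrophages, lies on chromosome 18 at 61100598 to 61132149 on the plus strand (ENSMUSG00000024621.16, 21 exons), with *Pdgfrb* and *Hmgxb3* partly in its window. It had no called peak in CD4SP or NKT. CLP held 2, 2 and 3 peaks and ILCP held 1 and 1. Bone marrow (1.8 ± 0.837, SD, n = 5) thus differed from thymus (0 in 4 libraries) without overlap, as did 3.54% of genes (exact permutation test, two-sided, p = 0.0238, adjusted p = 0.124). Per 10000 peaks the difference was 0.606 with an adjusted p of 0.0495, where 2843 of 17731 genes passed in either direction. With an extension of 5 kb, or none, the difference fell to 0.8 (exact p = 0.167, adjusted p = 0.373 and 0.427), because the upstream interval that holds the only ILCP peaks was then outside. Within bone marrow, CLP lay above ILCP without overlap, as did 10% of 17106 genes, with 4.69% the other way. That difference, -1.33 for ILCP minus CLP, reached p = 0.1 in the exact test, the smallest that 2 against 3 libraries allow, with an adjusted p of 0.8.

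A pair of intervals made up this pattern. The first, 14.4 kb upstream of the *Csf1r* start (chr18:61090319-61092523), was open in all 5 bone marrow libraries at like ranks, in the upper 15.1%, 10.8% and 11.4% in CLP and the upper 11.4% and 17.7% in ILCP. It lay 5258 bp from *Pdgfrb* and 8075 bp from *Csf1r*, so its gene cannot be assigned by position. The second, in intron 1 and 2.76 kb past the start (chr18:61107836-61109391), was open in the 3 CLP libraries, in the upper 29.2%, 12.5% and 16.3%, and in no library of another type. It was the only interval of the 31 open in CLP or ILCP (3.23%) that was open in every CLP and no ILCP library, where all intervals gave 8.18%, and the 1 of 36 (2.78%) open in every CLP library and in no library of another type, where all intervals gave 3.89%. A further 6 intervals were called in 1 or 2 CLP libraries and in no other type. The count of 1 among the 31 became 4 without CLP replicate 1, 5 and 3 without ILCP replicate 1 or 2, and 7 with an equal number of peaks. The first intron of *Csf1r* is known to hold an enhancer used by macrophages, whose position was not compared with this interval. The start itself was called in CLP replicate 3 alone, in the upper 93.6%. With the starts of *Flt3* and *Cd34*, the upstream interval was 1 of 3 of the 36 (8.33%) open in every bone marrow and no thymic library, against 2.04% of all intervals (plot of ranks at 4 intervals). The 3 became 0 when peaks had to cover at least 50% of the interval and 5 without ILCP replicate 2.

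**Figure D4:**
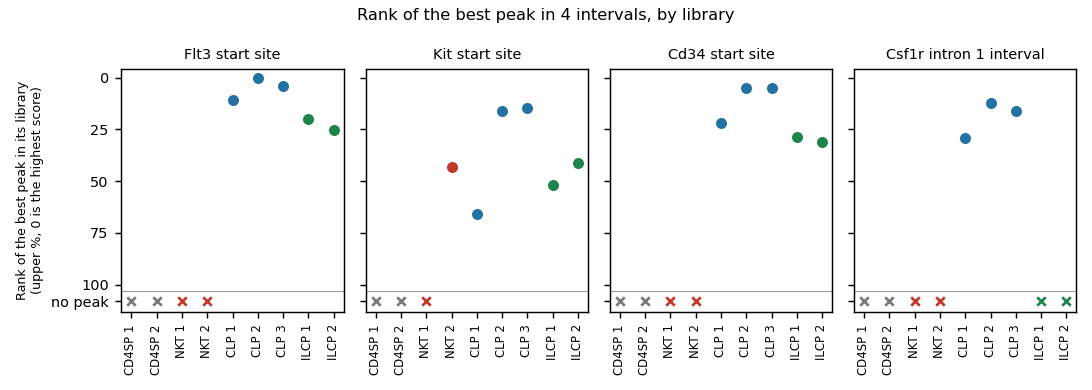
Rank of the best peak in its library (upper %, with 0 at the top for the highest score) in the intervals over the start sites of *Flt3*, *Kit* and *Cd34* and in the intron 1 interval of *Csf1r*, by library. For *Cd34* the best peak of ILCP replicates 1 and 2 is centered 4859 and 4862 bp past the start. Their peaks over that start rank in the upper 29.9% and 32.4%. Points are called peaks, and crosses below the line mark libraries with no peak. All CLP points lie above the ILCP points at *Flt3* and *Cd34*, CLP replicate 1 is lowest at *Kit*, and only CLP libraries have the *Csf1r* interval.

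Dendritic cells also use Flt3, and macrophages and some dendritic cells the CSF-1 receptor, so markers of dendritic cells were set beside these results. Of 4 (*Itgax*, *Siglech*, *Zbtb46*, *Irf8*), 1, 4 and 3 start sites were open in CLP replicates 1, 2 and 3, 1 and 0 in ILCP, and 1 or 2 in each thymic library. Their windows held 7, 13 and 11 peaks in CLP, 4 and 3 in ILCP and 11 to 14 in the thymus. By the methods, CLP suspensions had been depleted of cells bearing CD11c (the protein of *Itgax*), CD11b, B220, Gr-1 and other lineage proteins before the sort, and ILCP were sorted as lineage-negative. What part any remaining dendritic cells had in the *Flt3* and *Csf1r* results was not tested. The 4 did not move together. *Siglech* had 6, 5 and 5 peaks in CLP, 3 and 2 in ILCP and 1 in each thymic library, whereas *Irf8* had 1 in each bone marrow library and 5 to 7 in the thymus. *Zbtb46* had 0, 6 and 5 in CLP, 0 in ILCP and 4 to 6 in the thymus, and *Itgax* 0 or 1 in every library.

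*Csf3r* (ENSMUSG00000028859.14, chromosome 4, 126024550 to 126044440, plus strand, 17 exons), the receptor that drives granulocyte production, had almost no called peak of its own. Its start was open in CLP replicate 2 alone, in the upper 58.4%, within chr4:126024155-126025116. The window held 2 peaks in 8 libraries and 3 in CLP replicate 2. The 2 shared peaks were those over the start sites of its neighbors *Mrps15*, 22.5 kb past the *Csf3r* start, and *Oscp1*, 34.0 kb past it, both open in all 9 libraries. At *Mrps15* the ranks were in the upper 16.5% to 27.3% in the thymus, 37.6% to 39.7% in CLP and 43.0% and 47.2% in ILCP. At *Oscp1* the ILCP libraries, in the upper 25.1% and 30.5%, ranked above the CLP libraries, in the upper 37.3% to 67.8%. The exact p was 1 for the number of peaks in the *Csf3r* window in all 3 comparisons. Per 10000 peaks, bone marrow minus thymus was 0.205 (exact p = 0.0714, adjusted p = 0.176).

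*Csf2rb* (ENSMUSG00000071713.6, chromosome 15, 78325752 to 78353847, plus strand, 15 exons), the common β chain, was the least open of the 6. Its window held 1 interval, 4.82 kb upstream of the start (chr15:78320586-78321284). It was called in NKT replicate 2 and CLP replicate 3, in the upper 93.4% and 90.6%, over 699 and 629 bp. Each was 1 library of its type, and both ranks were near the end of the list. The paralog *Csf2rb2*, the IL-3-specific β chain of the mouse, lies 14865 bp from the interval and had the same peaks in its own window. The exact p was 1 for *Csf2rb* in each of the 3 comparisons.

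By position, 16 of the 36 intervals were centered in introns, 12 downstream of the gene, 6 upstream and 2 in untranslated exon sequence. No interval was specific to NKT or to CD4SP when these were compared, of 21 open in either, while genome-wide 6.48% were open in both NKT libraries only and 5.21% in both CD4SP libraries only. The counts of 0 were not stable, as NKT reached 4 without NKT replicate 1 and 1 without NKT replicate 2, and CD4SP reached 3 with an equal number of peaks or the higher-scoring 50%, 2 without NKT replicate 2 and 1 without CD4SP replicate 1. None of the 36 was open in both libraries of CD4SP or of NKT and in no other type, beside 2.65% and 1.96% of all intervals, while 3 were called in 1 NKT library and nowhere else. Intervals called in a single library made up 6 of the 36 (16.7%), near the 18% of all intervals. Across all genes tested, 0 passed an adjusted p of 0.05 in any of the 3 comparisons by the exact permutation test. At an unadjusted p below 0.05 there were 0 for ILCP against CLP, 0 for NKT against CD4SP, where the smallest p was 0.1 and 0.333, and 5455 for bone marrow against thymus. Over all genes ILCP minus CLP had a median of -0.5 peaks and NKT minus CD4SP of 0. The difference between the bone marrow and the thymic contrast, tested by permutation within tissues, had an exact p between 0.1 and 1 for the 6 genes.

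Other genes of these pathways were counted in 3 lists. None of 11 receptors of the same families, 8 ligands or 20 signaling genes passed the adjusted threshold in any comparison, where the background was also 0. The median difference of bone marrow minus thymus was 0.3 peaks for the receptors, -0.45 for the ligands and -2.08 for the signaling genes, beside -0.45 for all genes. *Pdgfrb*, the platelet-derived growth factor receptor next to *Csf1r*, held 0, 2, 0 and 1 peaks in the thymic libraries, 3, 6 and 5 in CLP and 2 and 2 in ILCP (exact p = 0.0476, adjusted p = 0.155), and its window shares peaks with that of *Csf1r*. *Kdr*, the neighbor of *Kit*, held 0, 1, 1 and 2 in the thymus, 2, 3 and 3 in CLP and 1 and 2 in ILCP. Among ligands, *Flt3l*, which encodes Flt3 ligand, held 6, 6, 6 and 7 peaks in the thymus and 4 or 5 in bone marrow (exact p = 0.00794, adjusted p = 0.0618). The tissues lay apart in this direction for 12.8% of 17731 genes. *Kitl*, which encodes stem cell factor, held 0 to 2 peaks in every library.

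The genes whose covered bases across the 9 libraries were most like those of each member, on other chromosomes, were found by Pearson's r as a description. For *Flt3* they were *Phgdh* (r = 0.992), *Tmem206* (0.987) and *Hs6st1* (0.985), and for *Kit* *Wee1* (0.966), *Aox1* (0.959) and *Txlng* (0.938). For *Cd34* they were *Slc6a3* (0.998), *Dhrs9* (0.998) and *C18orf63* (0.997), and for *Csf1r* *Htr7* (0.995), *Ctsh* (0.993) and *Naa11* (0.991). For *Csf3r* they were *Ksr2* (0.973), *Kcng2* (0.964) and *Myl7* (0.964). The 3 most like *Csf2rb*, *Trim63* (0.999), *Otop3* (0.998) and *Ccdc178* (0.997), rest on 2 libraries with a peak. The points share the number of peaks called in each library.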

How the data were processed

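ATAC-seq reads of 50 bp were aligned by the authors to mm10 with bowtie, allowing 2 mismatches, and peaks were called with MACS in each library without pooling. The MACS version and settings are not given in the sources used here, and the submitters' processing notes also name Picard and HOMER. The authors deposited, for each peak, its position and the peak caller's score, whose scale is not stated. Sequencing depth was stated only as a range over all libraries, with no value for each, so no counting interval could be given. Runx1 ChIP-seq of NKT thymocytes and the matching input (2 libraries) were not analysed here.

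Overlapping peaks (1 bp or more) of the 9 ATAC-seq libraries were joined to intervals with Python 3.11.15, numpy 2.4.6 and pandas 2.3.3. A library counted as open at an interval or start site wherever 1 of its peaks covered any base of it. Gene models came from GENCODE M21 and sequences from GRCm38.p6, read with pysam 0.24.0, and promoters from RefSeq. Distances run to the midpoint of an interval from the start of 1 transcript per gene, the APPRIS principal one with the longest coding sequence. Mean numbers of peaks per window were compared by exact permutation of library labels, two-sided, over every protein-coding gene with a peak, and adjusted by the Benjamini-Hochberg method (statsmodels 0.14.6). The smallest p that 5 against 4 libraries allow is 0.00794. The counting and the test were checked on simulated data. Figures were drawn with matplotlib 3.10.9.

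All 6 genes are named. Named intervals were those over a start site, those specific in a comparison, those open only in CLP and the best-ranked one, with the others given for completeness. The members, gene lists and motifs were chosen with earlier results of these data known. The order of ranks between types and the difference of the 2 contrasts were added after the values were seen. Alternatives were other window extensions (0, 5 and 50 kb), an equal number of peaks per library (19343), the higher-scoring 50% of peaks, peak midpoints, peaks per 10000 peaks, bases covered, leaving out peaks over other genes' start sites, blocks by replicate number and each library left out in turn, and for intervals a cover of at least 50% and openness in any library.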

Additional observations from a re-analysis of the deposited data

Results flagged for a closer look

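In groups of 4 or 5 libraries of 1 tissue, 4 peak numbers stood apart from the rest of their group by Dixon's criterion. Its rate of about 1 in 20 groups by chance is for continuous values and does not hold here. Where all other libraries of the group tie, a difference of 1 peak is always marked. *Kit* had 2 peaks in CLP replicate 1 and 3 in each other bone marrow library. *Csf3r* had 3 peaks in CLP replicate 2 and 2 in each other bone marrow library, the extra one lying over its start site. *Csf2rb* had 1 peak in CLP replicate 3 and 0 in the other bone marrow libraries, and likewise 1 peak in NKT replicate 2 and 0 in the other thymic libraries. Each value is 1 peak away from the others. CLP replicate 1 held 19343 peaks in all and CLP replicates 2 and 3 held 41535 and 40136, and the part of this in the *Kit* value was not tested.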

How the results depend on the processing

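Of 282 differences in peak number recomputed for the 6 genes, 260 kept their direction, or were 0, and their side of the threshold, 20 changed sign and 2 passed it. Per 10000 peaks, bone marrow minus thymus reached an adjusted p of 0.0495 for *Cd34* (1.62) and *Csf1r* (0.606), and 2843 of 17731 genes passed where 0 did by peak number. For *Flt3*, bone marrow minus thymus changed sign with an equal number of peaks (1.15), the higher-scoring 50% (0.35), per 10000 peaks (0.163) and in bases covered (238), and NKT minus CD4SP with a 50 kb extension (0.5). For *Kit*, NKT minus CD4SP changed sign with an equal number of peaks (-1.5) and the higher-scoring 50% (-1.5), ILCP minus CLP with 50 kb (-0.667), the higher-scoring 50% (-0.167) and bases (-30.5), and bone marrow minus thymus with the higher-scoring 50% (-0.65) or when each library was left out in turn (-0.2 to 0.467, with -0.2 without either CD4SP library). For *Csf3r*, ILCP minus CLP changed sign with 50 kb (0.167), the higher-scoring 50% (0.333) and per 10000 peaks (0.0163), and bone marrow minus thymus with 50 kb (-0.6), the higher-scoring 50% (-0.2) and bases (-158). For *Csf2rb*, bone marrow minus thymus ran from -0.25 to 0.2 with each library left out, the positive value without NKT replicate 2. The cause was not tested. None of these sign changes had an adjusted p below 0.05.

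Counts of specific intervals moved more. Those open in CLP and not ILCP, 1 in the report, were 7 with an equal number of peaks, 4 with the higher-scoring 50%, 5 with a cover of at least 50%, 9 when any library sufficed and 1 to 5 with each library left out (4 without CLP replicate 1, 5 and 3 without ILCP replicate 1 or 2). Those open in ILCP and not CLP, 2 in the report, were 1 with a 5 kb extension or none, 0 with the higher-scoring 50%, and 2 to 3 with each library left out. CD4SP against NKT, 0 in the report, gave 3 with an equal number of peaks and with the higher-scoring 50%, 1 when any library sufficed and 0 to 2 with each library left out (1 without CD4SP replicate 1, 2 without NKT replicate 2). NKT against CD4SP, also 0, gave 5 when any library sufficed and 0 to 4 with each left out (4 without NKT replicate 1, 1 without NKT replicate 2). The 3 bone marrow intervals became 0 with a cover of at least 50%, 15 when any library sufficed and 3 to 5 with each left out (5 without ILCP replicate 2). The 2 thymic intervals became 1 with a 5 kb extension, no extension, the higher-scoring 50% or a cover of at least 50%, 0 with an equal number of peaks, 5 when any library sufficed and 2 to 3 with each left out.

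Libraries were also paired by replicate number. Their deviations over genes correlated at -0.0994 and -0.0781 in bone marrow and at 0.521 in the thymus, with 2 pairs each. With 2 libraries per thymic type the 2 pairs must give the same value. What libraries of the same replicate number share beyond it is not stated, and its part in the results was not tested. With this replicate block ILCP minus CLP was -2 for *Flt3*, 0.5 for *Kit*, and -1 for *Cd34* and *Csf1r*. NKT minus CD4SP was -1.5 for *Flt3* and 1.5 for *Kit*. The smallest exact p that sign flips of 2 pairs allow is 0.5, so this block could not change a call.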

Other observations

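*Lyn*, a Src-family kinase that acts downstream of Kit and the CSF receptors, held 1, 0, 1 and 1 peaks in the thymic libraries, 8 and 7 in CLP replicates 2 and 3, 2 in CLP replicate 1, and 1 and 2 in ILCP. It was singled out after its values were seen. *Il5*, whose receptor uses the common β chain, held 2, 3, 2 and 3 peaks in the thymic libraries and 0 in all 5 from bone marrow (exact permutation p = 0.00794, two-sided, the smallest this design allows, adjusted p = 0.0618). Groups lay apart in this direction for 12.8% of genes. *Csf2* and *Il3*, which encode the other ligands of that receptor family, each held 1 and 2 peaks in CD4SP and 0 in the 7 other libraries. Whether their windows share these peaks was not checked. CD4SP thus lay above NKT without overlap, as for 6.61% of 16515 genes. Bone marrow minus thymus had an exact permutation p of 0.167, two-sided (adjusted p = 0.328), for each.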
